A study of Homo sapiens with 7 samples.

Results

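The cyclin-dependent kinase inhibitors are the proteins that hold the kinases of the cell cycle in check, and 8 genes were taken as the family: CDKN1A, CDKN1B, CDKN1C, CDKN2A, CDKN2B, CDKN2C, CDKN2D and CDKN3. Members were chosen by gene symbol, as every tested probe (detected on at least 1 array) to which the platform annotation gives one of these names. Probes of these genes that were detected on no array were not searched for. Of the 8 genes, 7 had at least 1 named probe among the 11389 genes with a tested probe, with 11 probes in all. CDKN2C, which encodes p18, was not analysed here because none of the tested probes carries its name.

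RNA was profiled in PC3, an established prostate cancer line derived from a metastasis in bone, whose cells here carry a lentiviral cassette (TRIPZ) from which doxycycline induces MITFA, an isoform of the transcription factor MITF. No dox denotes untreated cells, the non-induced condition (3 arrays, replicates 2, 3 and 4), and Dox denotes the doxycycline-treated, MITFA-induced condition (4 arrays, replicates 1 to 4). Both groups carry the cassette, no doxycycline dose or time is given for the arrays in the sources used here, and cells given doxycycline without the cassette were not analysed here, so effects of the drug and of MITFA cannot be told apart. Nothing in the labels or the methods ties the 7 arrays to separate cultures, and the p-values then measure only a spread between arrays that may be technical.

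The signal of 47323 probes was measured on each array, and between 15562 and 16618 of them were detected (detection p-value under 0.01). Between any 2 arrays, the log2 signals correlated at 0.994 to 0.996. Of the epithelial markers, 5 of 6 had a tested probe (KRT8, KRT19, EPCAM, CDH1 and CLDN7). Their summed background-corrected signal was 1534 to 1733 in No dox and 1561 to 1691 in Dox. KRT19 was the brightest of them (mean log2 signal 10.2 in No dox). CDH1 and CLDN7 lay near background (4.98 and 4.90 in No dox), and CDH1 was detected on 2 of 3 No dox arrays. Of the markers of androgen receptor-positive luminal cells only ACP3 had a tested probe, and of the melanocyte markers 0 of 7 did. Fewer markers of other cell types had a tested probe. The 2 of 6 fibroblast markers (COL1A1 and COL1A2) summed to 45.5 to 57.7 in No dox and 44.9 to 51.8 in Dox. The 2 of 6 leukocyte markers (CD14 and LAPTM5) summed to 49.3 to 51.1 and 48.6 to 56.1, and the 3 of 5 endothelial markers (TEK, PECAM1 and KDR) to 82.3 to 92.1 and 79.9 to 97.2. These sums cover different numbers of probes and are compared between the groups only, whose ranges overlapped in each list, and 0 genes of these lists passed the adjusted threshold. Each probe also brings the offset of 16 from the background correction, a large part of the smaller sums. COL1A1 and LAPTM5 were each detected on 1 of 3 No dox and 0 of 4 Dox arrays, and TEK on 0 of 3 and 2 of 4. The 1 tested MITF probe had a log2 signal of 6.89, 6.88 and 6.69 in No dox and 6.70, 6.94, 6.74 and 6.67 in Dox (adjusted p = 0.90 from limma). Since its sequence is not given, it may not read the transcript of the cassette and was not taken as a check of the induction.

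Cyclin-dependent kinases drive the cell through its cycle once they bind a cyclin. The CIP/KIP inhibitors p21 (CDKN1A), p27 (CDKN1B) and p57 (CDKN1C) bind cyclin and kinase together, while the INK4 inhibitors p16 (CDKN2A), p15 (CDKN2B), p18 (CDKN2C) and p19 (CDKN2D) bind CDK4 and CDK6 and keep cyclin D away. Their inhibition leaves the retinoblastoma protein unphosphorylated and the E2F factors silent, which holds cells before S phase. CDKN3 differs from the others in being a phosphatase that removes an activating phosphate from the kinases. The p53 protein is the best known inducer of CDKN1A, and PC3 cells are known to lack functional p53. MITF binds E-boxes. The study names 2 of the inhibitors: it states, without showing the data, that altered MITF expression in prostate cancer cells raised p21. For p16 it reports that no change was seen, and for neither does it say whether RNA or protein was measured. The question asked of the arrays was whether the RNA of p21, p16 and the other inhibitors differed upon MITFA induction.

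The promoters of 3 members are printed because they belong to the inhibitors that the study names (CDKN1A and CDKN2A) and to the member with the smallest p (CDKN2B). Each run has 300 bases across a transcription start (RefSeq, GRCh38.p14), most of them before it, written 5′ to 3′ on the strand of the gene. Capitals mark the E-box letters CANNTG, read on both strands (the motif is its own reverse complement, so each match counts once).
CDKN1A, chr6:36678464-36678763, plus strand: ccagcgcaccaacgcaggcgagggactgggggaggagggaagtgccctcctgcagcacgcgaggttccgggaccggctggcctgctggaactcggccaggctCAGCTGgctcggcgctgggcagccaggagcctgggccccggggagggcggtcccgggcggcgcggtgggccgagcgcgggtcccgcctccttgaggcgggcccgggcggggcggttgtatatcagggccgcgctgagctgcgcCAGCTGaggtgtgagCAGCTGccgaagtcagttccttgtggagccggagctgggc
CDKN2A at the start of the p16 transcript, chr9:21974808-21975107, minus strand: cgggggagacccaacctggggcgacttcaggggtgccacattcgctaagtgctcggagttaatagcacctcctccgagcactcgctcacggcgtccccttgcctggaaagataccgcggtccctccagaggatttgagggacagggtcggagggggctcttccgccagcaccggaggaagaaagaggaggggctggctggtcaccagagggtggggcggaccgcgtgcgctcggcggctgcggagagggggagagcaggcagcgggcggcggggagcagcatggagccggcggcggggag
CDKN2A at the start of the ARF transcript, chr9:21995275-21995574, minus strand: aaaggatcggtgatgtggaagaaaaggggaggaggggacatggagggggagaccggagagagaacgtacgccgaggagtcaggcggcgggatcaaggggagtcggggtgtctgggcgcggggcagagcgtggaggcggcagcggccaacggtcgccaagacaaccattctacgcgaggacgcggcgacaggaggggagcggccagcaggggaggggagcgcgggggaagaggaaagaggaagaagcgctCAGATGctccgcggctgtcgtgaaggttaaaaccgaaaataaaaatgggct
CDKN2B, chr9:22009256-22009555, minus strand: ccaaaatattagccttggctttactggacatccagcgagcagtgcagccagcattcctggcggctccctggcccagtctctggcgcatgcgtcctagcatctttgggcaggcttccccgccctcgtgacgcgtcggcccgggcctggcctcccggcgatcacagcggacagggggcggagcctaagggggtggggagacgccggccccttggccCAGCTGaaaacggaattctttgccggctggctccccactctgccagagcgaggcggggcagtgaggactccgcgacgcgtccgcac

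CDKN1A held 3 of these E-boxes, all with the letters CAGCTG, at -148, -5 and 11 counted from the transcription start. The p16 start held 0, the ARF start 1 (CAGATG at -1) and CDKN2B 1 (CAGCTG at -36). In the promoter table, CANNTG was present in 68.7% of 35116 promoters of the same length and in 8 of the 10 that belong to members. The palindrome CACGTG was present in 7.26% of all and in 2 of the 10, both of CDKN2C, and CATGTG (or CACATG on the other strand) in 11.1% of all and in 0 of the 10. GGGCGG (or CCGCCC), the GC box, was present in 45% of all promoters and in 7 of the 10, with 4 matches at CDKN1A, 2 at the p16 start, 0 at the ARF start and 2 at CDKN2B. None of the E-boxes at CDKN1A, CDKN2A or CDKN2B had the letters CACGTG or CATGTG. The matches of all these motifs describe the letters of each window and were not tested for binding by MITF or any other factor.

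Of the 11 member probes, 10 were detected on all 7 arrays and are counted here. Among these 10, 0 passed an adjusted p of 0.05 in the limma fit of Dox against No dox. Over all 19337 tested probes, 0.134% did (26 probes). The CDKN1A probe and a CDKN2B probe had the highest values relative to No dox, each at 1.18-fold. Both had an unadjusted p under 0.05 in limma and neither passed the adjustment. Those 2 of 10 were higher in Dox and 0 were lower, against 4.49% of all tested probes higher and 4% lower at the same unadjusted threshold. For 0 of the 10 probes were the arrays of the 2 groups fully separated, a pattern seen for 9.3% of all tested probes. On the log2 scale 5 of these 10 had a fold change above 0 and 5 below, with a median of 0.00028, and the median over all tested probes was -0.00085 with quartiles at -0.080 and 0.075.

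**Figure D1:**
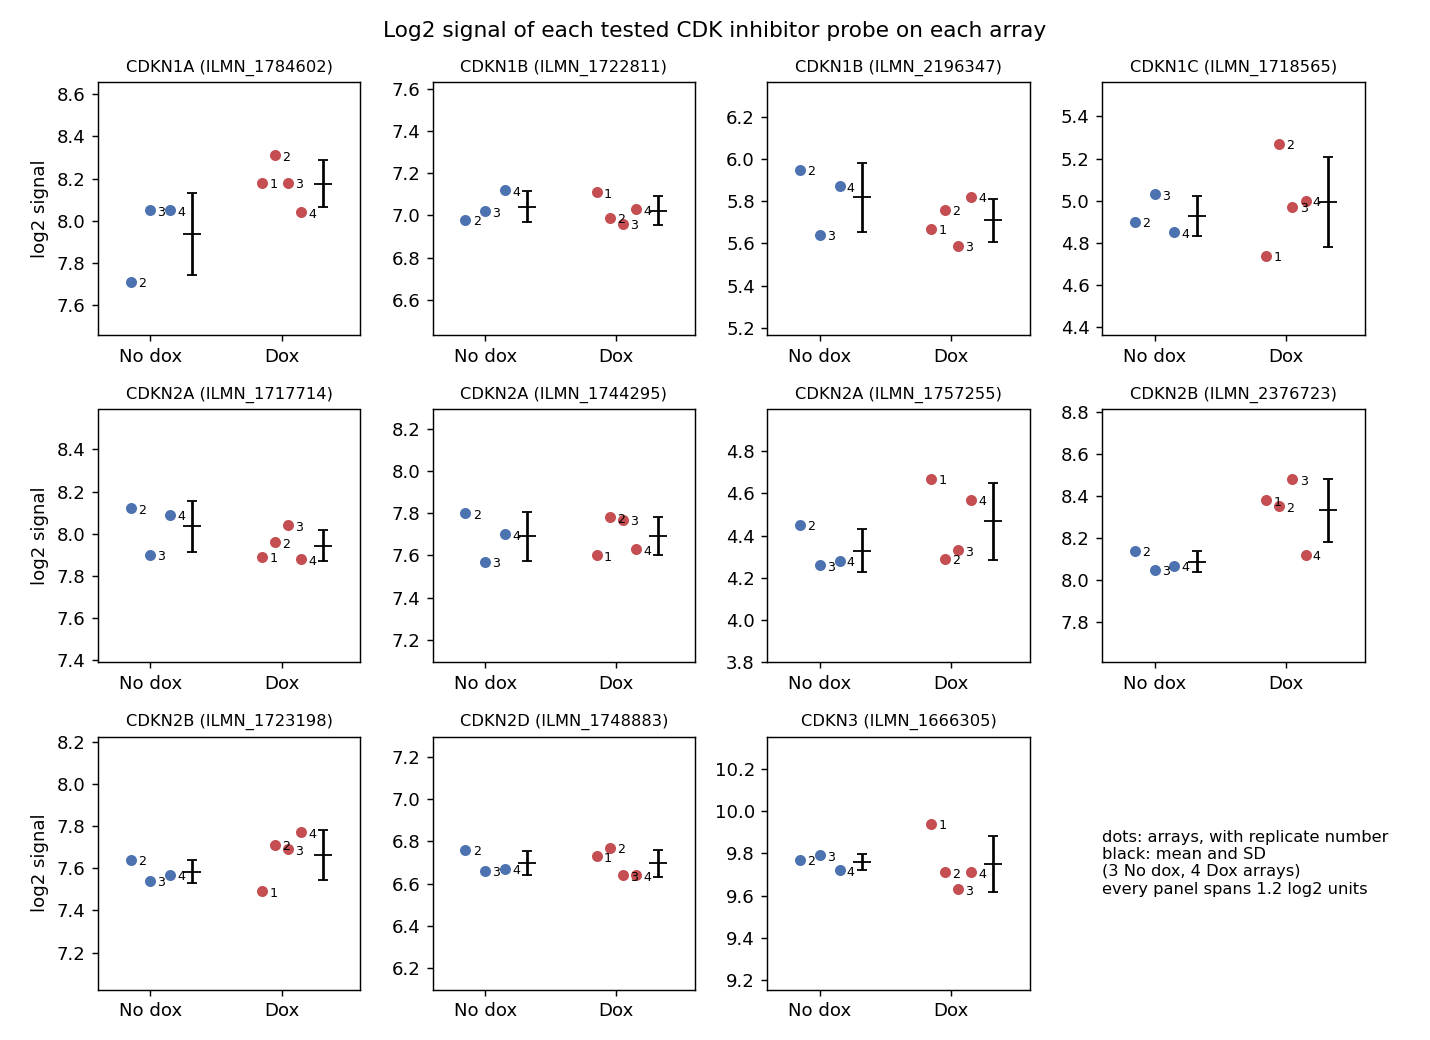
Background-corrected, quantile-normalized log2 signal (vertical axis) of the 11 tested probes of the CDK inhibitors on each array, numbered by replicate, with the mean and SD of 3 No dox (blue) and 4 Dox (red) arrays in black. Each panel spans 1.2 log2 units around its own level, and in every panel the arrays of the 2 groups overlap.

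CDKN1A (chromosome 6, 36676463 to 36687332, GRCh38.p14) was read by the probe ILMN_1784602, annotated to NM_000389. Its log2 signal was 7.71, 8.05 and 8.05 in No dox and 8.18, 8.31, 8.18 and 8.04 in Dox. The lowest Dox array lay just under the 2 upper No dox arrays, and No dox replicate 2 lay below all others. In the deposited signal intensity the same arrays had 281, 318 and 339 in No dox and 365, 382, 341 and 333 in Dox. The group means were 7.94 ± 0.19 (SD, n = 3) and 8.18 ± 0.11 (SD, n = 4), a log2 fold change of 0.24 (SE 0.10), or 1.18-fold with a 95% confidence interval of 1.01 to 1.38. From limma, p was 0.0421 before and 0.574 after Benjamini-Hochberg adjustment over all tested probes, and an exact two-sided permutation test over the 35 splits of the arrays gave p = 0.114. The smallest p that this permutation design allows is 0.0286. At this standard error a log2 fold change of 0.67 would have been called. Without No dox replicate 2 the log2 fold change was 0.13 (adjusted p = 0.746 from limma). The unadjusted p was above 0.05 there and also without Dox replicate 1, 2 or 3, where the log2 fold change was 0.24, 0.19 and 0.24.

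CDKN2A (chromosome 9, 21967752 to 21995324) encodes p16 and, from another start site and reading frame, ARF, which stabilises p53. It was read by 3 probes annotated to different transcripts, and since no source used here gives their sequences, how far they separate the transcripts, which share exons, is not known. The probe annotated to the p16 transcript (ILMN_1717714, NM_000077) had a log2 signal of 8.12, 7.90 and 8.09 in No dox and 7.89, 7.96, 8.04 and 7.88 in Dox. No dox replicate 3 lay among the Dox arrays. The means were 8.04 ± 0.12 (SD, n = 3) and 7.94 ± 0.074 (SD, n = 4), a log2 fold change of -0.092 (SE 0.081) with an adjusted p of 0.792 from limma and an exact permutation p of 0.229. The 95% confidence interval of the fold ran from 0.827 to 1.06, which includes no change as well as a small decrease or increase. The log2 fold change was -0.16 without No dox replicate 3 and -0.052 without No dox replicate 2 (adjusted p = 0.686 and 0.917 from limma).

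The probe annotated to the ARF transcript (ILMN_1744295, NM_058195) had 7.80, 7.57 and 7.70 in No dox and 7.60, 7.78, 7.77 and 7.63 in Dox. The groups covered the same range, and the log2 fold change was 0.0013 (95% confidence interval of the fold 0.880 to 1.14, adjusted p = 0.997 from limma). The remaining probe (ILMN_1757255, NM_058197) was detected on 0 of 3 No dox arrays and 1 of 4 Dox arrays, with log2 signals of 4.45, 4.26 and 4.28 and of 4.67, 4.29, 4.33 and 4.57. These values were not well above background, so no fold and no test are given. The probe entered the fit only through Dox replicate 1, the highest of its 7 values.

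CDKN2B, which lies beside CDKN2A (chromosome 9, 22002903 to 22009313) and encodes p15, an inhibitor induced by TGF-β, was read by 2 probes. They are annotated to different transcripts, and without their sequences it is not known here how far either probe reads the p15 transcript. The probe ILMN_2376723, annotated to NM_078487, had a log2 signal of 8.14, 8.05 and 8.07 in No dox and 8.38, 8.35, 8.48 and 8.12 in Dox. Dox replicates 1, 2 and 3 lay above the No dox arrays and Dox replicate 4 among them. Its means were 8.09 ± 0.048 (SD, n = 3) and 8.33 ± 0.15 (SD, n = 4), a log2 fold change of 0.24 (SE 0.091) or 1.18-fold, with a 95% confidence interval of 1.03 to 1.36. From limma, p was 0.0234 before and 0.525 after adjustment, and the exact permutation p was 0.0857. The unadjusted p was above 0.05 without No dox replicate 3 or 4 (log2 fold change 0.22 and 0.23) and without Dox replicate 1 or 3 (0.23 and 0.20). A log2 fold change of 0.60 would have been called at this standard error.

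The other CDKN2B probe (ILMN_1723198, NM_004936) had 7.64, 7.54 and 7.57 in No dox and 7.49, 7.71, 7.69 and 7.77 in Dox, a log2 fold change of 0.080 (adjusted p = 0.830 from limma), which was 0.14 without Dox replicate 1 and 0.046 without Dox replicate 4. Here Dox replicate 1 was the lowest array of all and Dox replicate 4 the highest, whereas at the probe above replicate 4 was the lowest Dox array. Whether the probes of a gene differed in their response was tested on their log2 difference within each array, for the 3 pairs of probes of the same gene that were detected on all arrays, a test chosen after the values were seen. For CDKN2B the difference was 0.50, 0.51 and 0.50 in No dox and 0.89, 0.64, 0.78 and 0.35 in Dox (exact permutation p = 0.314, 0.471 after adjustment over the 3 pairs). For the p16 and ARF probes of CDKN2A it was 0.31, 0.33 and 0.39 in No dox and 0.30, 0.18, 0.28 and 0.25 in Dox (exact permutation p = 0.0571, adjusted 0.171). For the CDKN1B probes the exact permutation p was 0.514.

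**Figure D2:**
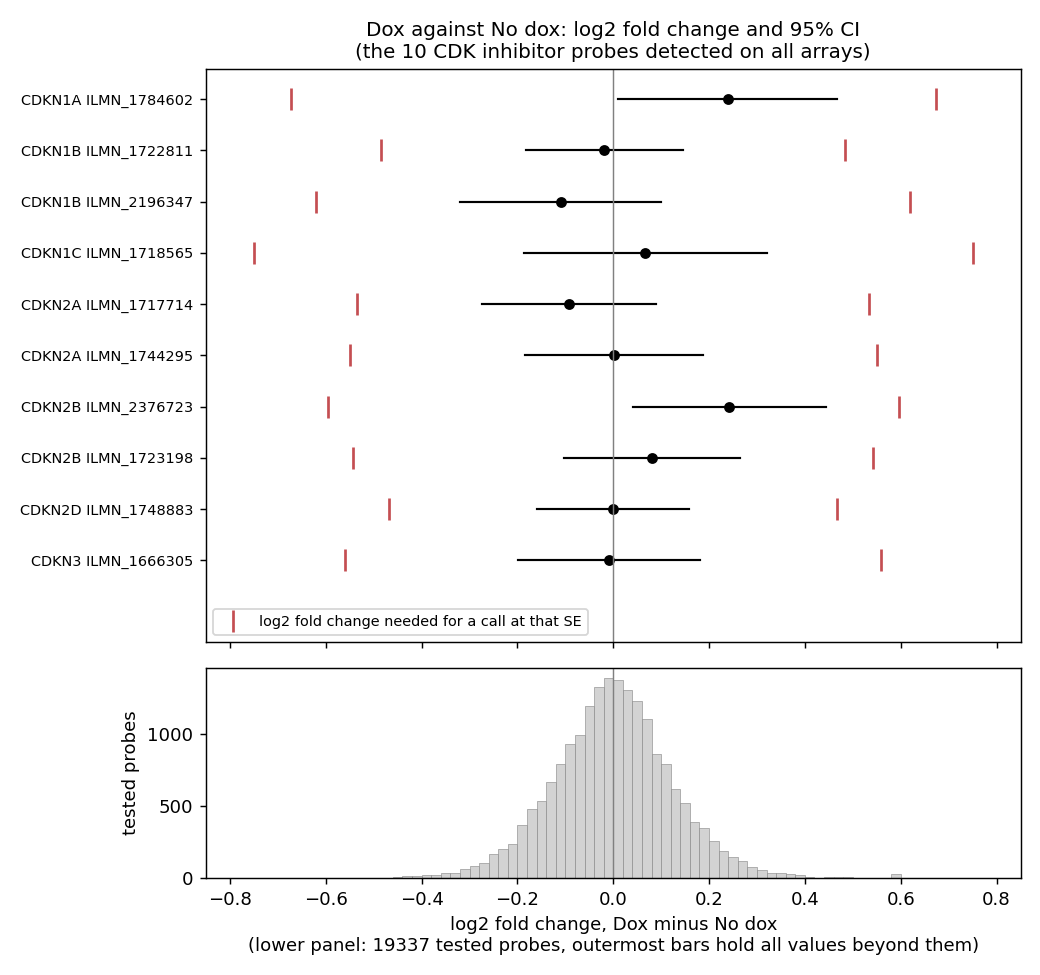
Log2 fold change of Dox against No dox (horizontal axis) with its 95% confidence interval for the 10 probes of the family detected on all 7 arrays, with red ticks at the log2 fold change each probe would have needed for an adjusted p under 0.05, and, below, the number of tested probes (vertical axis) in each bin of log2 fold change. The intervals of CDKN1A and of the CDKN2B probe ILMN_2376723 lie above 0, and all 10 values lie inside their ticks.

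CDKN1B (chromosome 12, 12717368 to 12722369) encodes p27, the inhibitor that accumulates in resting cells and is broken down when cells enter S phase. Its probe ILMN_1722811 had a log2 signal of 6.98, 7.02 and 7.12 in No dox and 7.11, 6.99, 6.96 and 7.03 in Dox, and the log2 fold change was -0.019 (adjusted p = 0.963 from limma). The other probe, ILMN_2196347, annotated to the same transcript (NM_004064), had 5.95, 5.64 and 5.87 against 5.67, 5.76, 5.59 and 5.82, a log2 fold change of -0.11 (adjusted p = 0.785 from limma). Its value was -0.20 without No dox replicate 3 and -0.043 without No dox replicate 2 (adjusted p = 0.657 and 0.946). At both probes the arrays of the groups overlapped.

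CDKN1C (chromosome 11, 2883218 to 2885775), the imprinted gene of p57, was detected on all 7 arrays at a signal close to background. Its log2 values were 4.90, 5.03 and 4.85 in No dox and 4.74, 5.27, 4.97 and 5.0 in Dox, with a log2 fold change of 0.067 (adjusted p = 0.907 from limma) that ran from -0.023 to 0.15 with single arrays left out. The lowest and the highest of the 7 values both came from Dox arrays. CDKN2D (chromosome 19, 10566460 to 10568979), the gene of p19, had 6.76, 6.66 and 6.67 in No dox and 6.73, 6.77, 6.64 and 6.64 in Dox, which gave a log2 fold change of -0.00074 with a 95% confidence interval of the fold from 0.895 to 1.12. CDKN3 (chromosome 14, 54397007 to 54420218), whose RNA is known to peak in dividing cells, had 9.77, 9.79 and 9.72 in No dox and 9.94, 9.71, 9.63 and 9.71 in Dox (log2 fold change -0.0091, adjusted p = 0.987 from limma). Dox replicate 1 was the highest of its 7 arrays, and the other 3 Dox arrays lay below the lowest No dox array.

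The precision differed between the members. In the fit reported here, the log2 fold change needed for a call at each probe's own standard error ran from 0.47 for CDKN2D to 0.75 for CDKN1C (1.38- to 1.68-fold). The precision differs with the processing. On the authors' log2 values CDKN1A had an SE of 0.064 and a log2 fold change of 0.19, against 0.10 and 0.24 here. Over the 10 probes detected on all arrays the 95% confidence intervals reached from 0.801-fold at the lower end (CDKN1B, ILMN_2196347) to 1.38-fold at the upper end (CDKN1A). In RNA from whole cultures, a smaller share of cells that express a gene and less of its RNA per cell cannot be told apart.

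**Figure D3:**
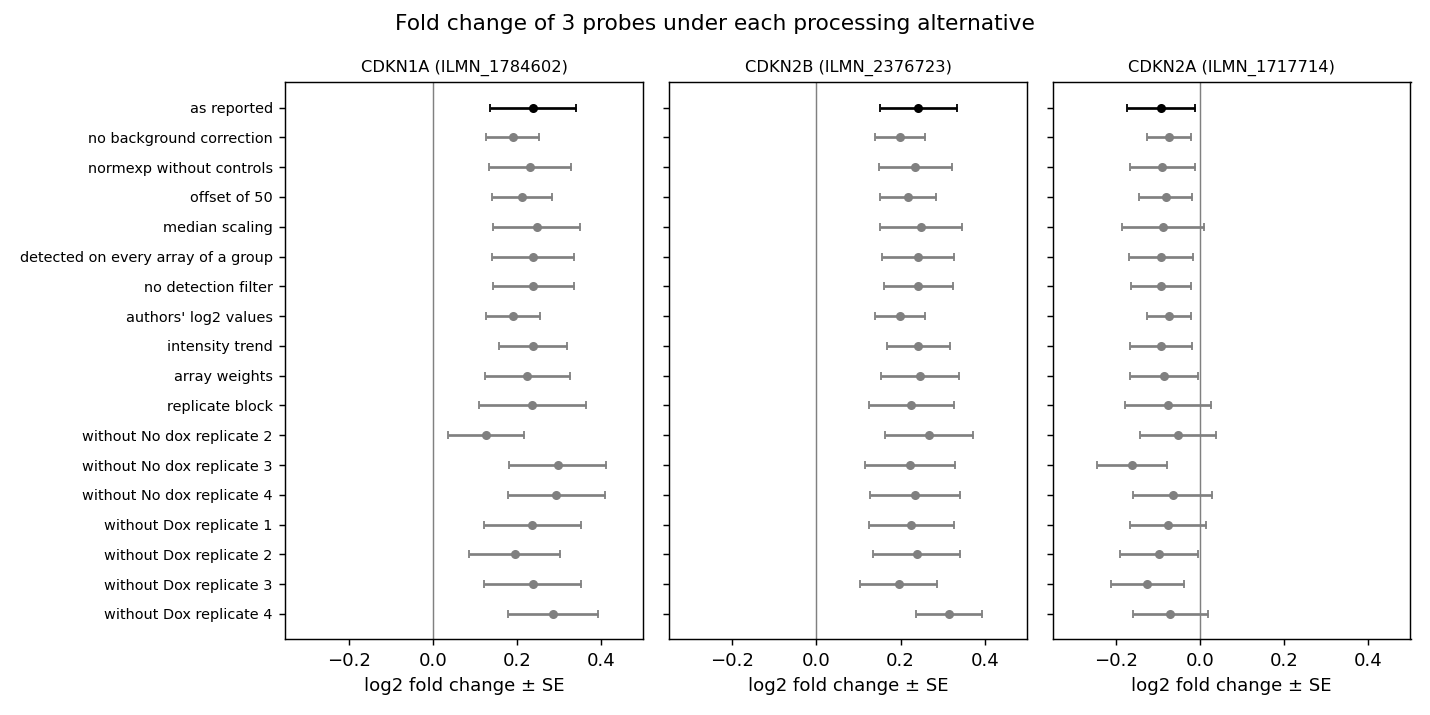
Log2 fold change ± SE (horizontal axis) of the CDKN1A probe, the CDKN2B probe ILMN_2376723 and the CDKN2A probe annotated to p16 as reported (black) and under 17 other ways of processing or selecting the arrays (grey, 1 per row). CDKN1A stayed between 0.13 and 0.30, CDKN2B between 0.20 and 0.31 and CDKN2A between -0.16 and -0.052.

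Genes that act with the inhibitors were described in 7 lists holding 170 genes, 148 of them with a tested probe, each gene by its brightest probe. Only GDF15 passed the adjusted threshold in these lists, against 23 of 11389 genes overall (0.202%). At an unadjusted p under 0.05 in limma 6 of the 148 were higher and 4 lower, where 5.01% of all genes were higher and 3.46% lower. In 15 of the 148 the groups did not overlap, against 10.2% of all genes. Over all genes 51.9% had a log2 fold change above 0, with a median of 0.0051.

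Downstream of the inhibitors, 0 of 19 measured cyclins, kinases and their activators passed, 12 of them lay above 0 and the median log2 fold change was 0.0061. CCND1, the D-type cyclin that pairs with the kinases INK4 proteins inhibit, had 11.37, 11.48 and 11.64 in No dox and 11.76, 11.68, 11.66 and 11.57 in Dox (log2 fold change 0.17, adjusted p = 0.627 from limma). CDK6, a direct partner of p16 and p15, had 8.39, 8.32 and 8.31 in No dox and 8.10, 8.21, 8.26 and 8.17 in Dox (log2 fold change -0.15, adjusted p = 0.598). CCNA1, a cyclin A best known from the germ line, had a log2 fold change of 0.18 (adjusted p = 0.585). All Dox arrays of CDK6 lay below the No dox arrays, and for CCND1 and CCNA1 the groups overlapped.

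Of the pocket proteins, E2F factors and parts of the DREAM repressor, 0 of 20 passed, 7 were above 0 and the median was -0.019. E2F1, the activator released by the retinoblastoma protein, had a log2 fold change of 0.22 (adjusted p = 0.629 from limma) at a probe detected on 1 of 3 No dox and 2 of 4 Dox arrays. The repressor E2F4 had -0.12 (adjusted p = 0.710) and LIN37, a core part of DREAM, 0.19 (adjusted p = 0.701). The LIN37 probe lay near background and was detected on 2 of 3 No dox and 4 of 4 Dox arrays. Among the S phase genes that E2F activates, 0 of 27 passed, 10 were above 0 and the median was -0.022. CDC6, which loads the replicative helicase, had 5.22, 5.32 and 5.23 in No dox and 5.47, 5.39, 5.51 and 5.43 in Dox (log2 fold change 0.19, adjusted p = 0.509), and the origin recognition subunit ORC1 and the replication factor MCM10 had -0.12 (adjusted p = 0.678) and -0.13 (adjusted p = 0.674). CDC6 was thus higher on all Dox arrays while most genes of its list lay slightly below 0, and none of them passed the test.

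Among p53 target genes other than the inhibitors themselves, 1 of 21 passed, 12 were above 0 and the median was 0.013. GDF15, a secreted stress factor of the TGF-β family, had 9.25, 9.22 and 9.27 in No dox and 10.17, 9.88, 9.94 and 10.04 in Dox. Every Dox array lay above every No dox array, and the log2 fold change of 0.76 (SE 0.083), or 1.69-fold, had an adjusted p of 0.0059 from limma. Without No dox replicate 3 its log2 fold change was 0.75 and its adjusted p 0.0530. ZMAT3, an RNA-binding p53 target, had -0.26 (adjusted p = 0.571), and BBC3, which encodes the death factor PUMA, had 0.23 (adjusted p = 0.591).

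Transcription factors and chromatin proteins known to act on the inhibitor genes were measured for 32 of 40 listed, of which 0 passed, 12 were above 0 and the median was -0.035. CEBPA, which acts with p21 to restrain growth, had 7.17, 7.15 and 7.25 in No dox and 6.72, 6.99, 6.89 and 7.0 in Dox (log2 fold change -0.29, adjusted p = 0.399 from limma). KLF6, a zinc finger factor that activates CDKN1A, had 8.31, 8.50 and 8.29 in No dox and 8.78, 8.65, 8.62 and 8.50 in Dox (log2 fold change 0.27, adjusted p = 0.475). SMAD4, which carries the TGF-β signal to CDKN2B and CDKN1A, had a log2 fold change of -0.19 (adjusted p = 0.593). CEBPA was lower on all Dox arrays, KLF6 touched the No dox range with its lowest Dox array, and neither passed.

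The listed genes that act in the breakdown of p27, p21 and p57, most of them for ubiquitin ligase parts, were all measured. Of these, 0 of 13 passed, with 5 above 0 and a median of -0.015. SKP2, the subunit that recognises p27, had 10.24, 10.15 and 10.06 in No dox and 9.96, 9.95, 9.89 and 9.92 in Dox, a log2 fold change of -0.22 (adjusted p = 0.472 from limma). The Dox arrays of SKP2 all lay below the No dox arrays. DTL, which directs p21 to the CUL4 ligase, had -0.12 (adjusted p = 0.722) and CUL4A, the scaffold of that ligase, 0.11 (adjusted p = 0.730). Protein levels were not measured on these arrays.

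Of the genes linked to senescence, a lasting arrest held by p16 and p21, 0 of 16 measured passed, 7 were above 0 and the median was -0.055. IL1B, an inflammatory cytokine, had 6.30, 6.17 and 6.23 in No dox and 6.44, 6.64, 6.61 and 6.61 in Dox (log2 fold change 0.34, adjusted p = 0.254 from limma). GLB1, the lysosomal β-galactosidase behind the usual senescence stain, had 8.43, 8.40 and 8.50 in No dox and 8.60, 8.60, 8.60 and 8.63 in Dox (log2 fold change 0.16, adjusted p = 0.548). Both were higher on every Dox array than on any No dox array. HMGB1, a chromatin protein lost from senescent nuclei, had -0.23 (adjusted p = 0.587).

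**Figure D4:**
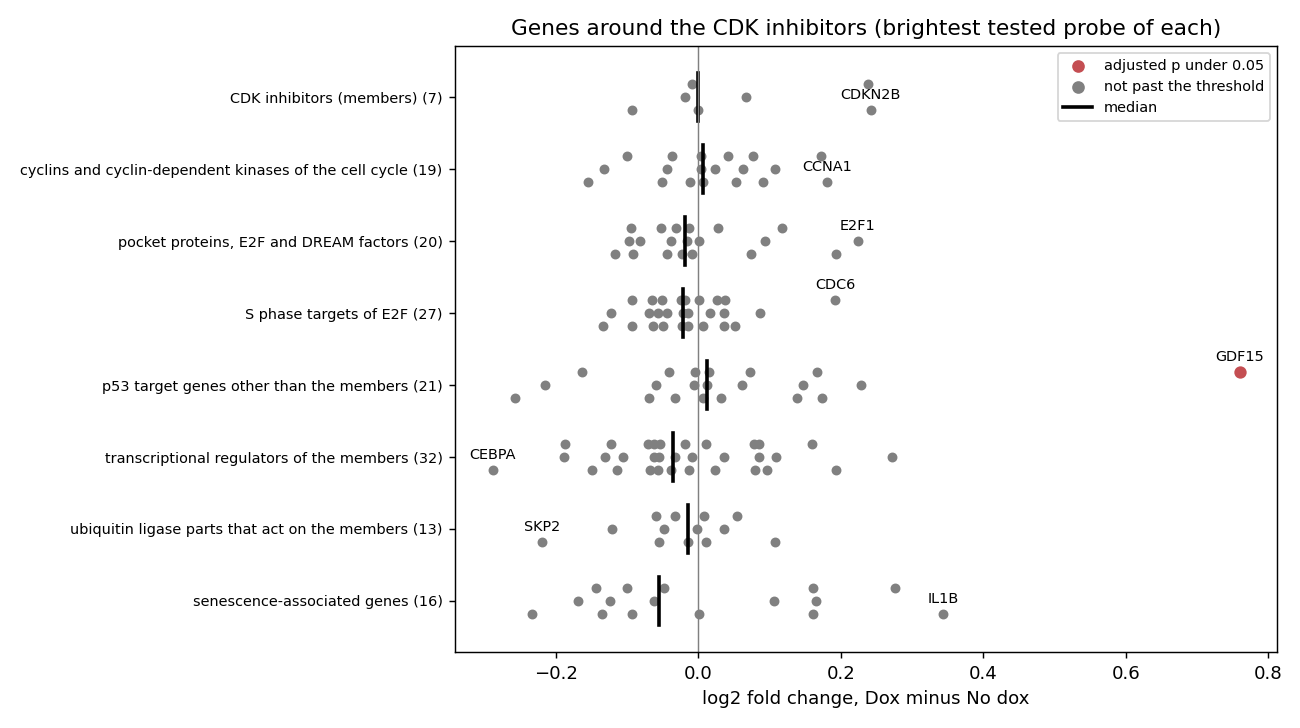
Log2 fold change of Dox against No dox (horizontal axis) for each measured gene of the inhibitor family and of the 7 lists around it, by its brightest tested probe (7 arrays), with black bars at the list medians. GDF15, at 0.76, is the only gene past the adjusted threshold (red), and the list medians lie between -0.055 and 0.013.

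The genes whose signal followed CDKN1A most closely over the 7 arrays were COX17, a copper chaperone of mitochondria (Pearson r = 0.982), TMBIM6, an inhibitor of cell death in the endoplasmic reticulum (0.965), and BIRC5, which encodes survivin (0.965). They were picked as the 3 highest of 15059 named probes, of which 63 had r over 0.9, and all points share the same 7 arrays, so the values are a description. COX17 had 10.02, 10.12 and 10.10 in No dox and 10.14, 10.18, 10.16 and 10.09 in Dox. As for CDKN1A, No dox replicate 2 was the lowest array and Dox replicate 2 the highest. Their log2 fold changes were 0.060, 0.087 and 0.10, and none passed (adjusted p = 0.847, 0.763 and 0.730 from limma).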

How the data were processed

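RNA of 7 PC3 TRIPZ-MITFA samples was hybridised to Illumina BeadChip arrays. The authors deposited the signal intensity of 47323 probes with a detection p-value each, and log2 values of 19337 probes (column median 7.16). According to the methods these were made with lumi by background correction, log2 transformation and quantile normalization. On them the log2 fold change of CDKN1A was 0.19, the same as computed here without background correction. Whether the deposited values were background-corrected was not tested. No scanner software version was found in the labels or methods. Here the deposited intensity was corrected with neqc of limma 3.58.1 (R 4.3.3), which fits normexp to negative controls estimated from the detection p-values (offset 16), then takes log2 and quantile-normalizes. Stronger background correction enlarges the fold changes of dim probes. Probes were tested if their detection p-value was below 0.01 on any array (19337 probes), by limma with 2 group means and empirical Bayes moderation, Benjamini-Hochberg adjustment over all of them and a threshold of 0.05. The number of arrays limits the precision. Gene names came from the platform annotation, updated through RefSeq: 15060 tested probes carry 1 name, 2 several and 4275 none. Coordinates and promoters (10 entries for members) are those of RefSeq (GRCh38.p14). No pair of arrays held identical signals, and an untreated replicate 1 was not analysed here. Scripts were tested on simulated data. Named genes are all tested member probes, the genes of each list past the threshold with up to 3 of the smallest p, and the 3 probes most like CDKN1A. The members and lists were chosen with earlier results of these data known. Other settings tried were the background method, offset, scaling, detection filter, deposited log2 values, a trend in limma, array weights, a replicate block and leaving out single arrays.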

Additional observations from a re-analysis of the deposited data

Results flagged for a closer look

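Of 46 probes examined (those of the inhibitors and of the named genes), 2 had a Dox array far from the other 3, where chance gives such a gap in about 1 of 20 groups, and neither was an inhibitor probe. For IL1B (ILMN_1775501), Dox replicate 1 was low (6.44 against 6.64, 6.61 and 6.61 on the log2 scale), and its gap to the nearest array was 0.842 of the range of the group. For GLB1 (ILMN_2397721), Dox replicate 4 was high (8.63 against 8.60, 8.60 and 8.60), with a gap of 0.858 of a range that was itself small.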

How the results depend on the processing

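The 11 inhibitor probes were recomputed under 16 or 17 alternatives each, 186 values in all, and 0 of them passed the adjusted threshold. The sign differed from the reported value in 16 of the 186, for CDKN1B (ILMN_1722811, 2), CDKN1C (1), the ARF probe of CDKN2A (3), CDKN2D (5) and CDKN3 (5), and in 0 for CDKN1A, the p16 probe and both CDKN2B probes. The adjusted p of CDKN1A ran from 0.242 to 0.746 and that of the CDKN2B probe ILMN_2376723 from 0.172 to 0.694, and the unadjusted p of limma stayed under 0.05 in 11 and 12 of 17 alternatives. On the authors' log2 values CDKN1A had a log2 fold change of 0.19 (adjusted p = 0.269) and this CDKN2B probe 0.20 (adjusted p = 0.185). The CDKN2A probe ILMN_1757255 has no value where detection on every array of a group was required, which leaves it out by construction. Its other values are among the 186, though it was detected on 0 of 3 No dox and 1 of 4 Dox arrays. The count of called probes over the whole array (26, all higher in Dox) was 101 without background correction and 101 on the authors' log2 values (76 higher and 25 lower in each), 127 with an offset of 50 (87 and 40), 132 with an intensity trend (93 and 39) and 12 to 18 with 1 array left out, and the cause was not tested. The call of GDF15, the only one in the lists, held in all but the replicate block and without No dox replicate 3 (0 to 1 list genes called with 1 array left out). Same-numbered arrays did not deviate together (correlations of -0.035, 0.0090 and -0.021, and 0 arrays closest to their own number). With so few arrays this cannot exclude a pairing, and the reported fit treats the arrays as unpaired. Leaving out single arrays moved several uncalled inhibitor values by over 1.5 times. With the replicate number as a block, a fit that leaves out Dox replicate 1 because no No dox array shares its number, 6 probes and 0 list genes were called, and CDKN1A had 0.24 (adjusted p = 0.721).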
